A study of Mus musculus with 2 samples.

Results

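The 9 genes described here encode the enzymes that write, copy, oxidise and excise cytosine methylation in mouse embryonic stem (ES) cells. They are the DNA methyltransferase genes Dnmt1, Dnmt3a and Dnmt3b, the cofactor gene Dnmt3l, Uhrf1, the TET dioxygenase genes Tet1, Tet2 and Tet3, and the glycosylase gene Tdg. They were taken from the deposited table by gene symbol, and 9 of 9 were found among 51826 listed genes. Total RNA was sequenced from 1 library of ES cells labelled T29I and 1 library of ES cells labelled WT, the wild type. Both carry v6.5, a mouse ES cell line, as the source name and NBA1-19349 as the strain, and the series title names PRSS1 as the mutated gene. T29I is a change of threonine to isoleucine in the single-letter code of proteins. The labels give no number of clones, no passage and no culture medium. Each group has 1 library, so there is no replication: higher and lower levels are those of these 2 libraries, no p-value is given, and genotype, clone, culture and library preparation cannot be told apart. The comparison addresses how RNA levels in the mutated ES cells differ from those in the wild-type cells.

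In mammals a methyl group sits mostly on cytosines followed by guanine, the CpG dinucleotide. Dnmt3a and Dnmt3b add methyl groups to unmethylated DNA, with Dnmt3l as a cofactor that has no catalytic activity of its own. Uhrf1 recognises hemimethylated CpGs after replication and brings in Dnmt1, which copies the mark to the new strand. TET enzymes oxidise 5-methylcytosine to 5-hydroxymethylcytosine and further, and Tdg removes the most oxidised forms for replacement by base excision repair. Mouse ES cells are known for high Tet1 and Tet2 and for a DNA methylation level that differs between naive and primed culture states.

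The 250 bases upstream of the RefSeq start (GRCm38.p6) are shown for the 3 TET genes, which were all lower in the T29I library as deposited, and for Dnmt3l, the gene of the 9 that was 2-fold or more higher there on each scale used. Where RefSeq lists several starts, the one shared by most transcripts of the consensus coding set (CCDS) was taken. No CCDS transcript starts within 10 bases of the RefSeq start used for Tet1. Each is written 5′ to 3′ on the strand of the gene, and capitals mark CpG dinucleotides. Tet1 is read from chr10:62887325-62887574 on the - strand, Tet2 from chr3:133544391-133544640 on the - strand, Tet3 from chr6:83441679-83441928 on the - strand and Dnmt3l from chr10:78055085-78055334 on the + strand.
Tet1: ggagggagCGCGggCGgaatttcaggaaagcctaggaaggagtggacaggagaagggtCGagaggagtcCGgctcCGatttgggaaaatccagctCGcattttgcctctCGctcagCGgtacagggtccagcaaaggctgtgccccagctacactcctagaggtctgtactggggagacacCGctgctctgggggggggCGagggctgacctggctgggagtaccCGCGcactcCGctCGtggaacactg
Tet2: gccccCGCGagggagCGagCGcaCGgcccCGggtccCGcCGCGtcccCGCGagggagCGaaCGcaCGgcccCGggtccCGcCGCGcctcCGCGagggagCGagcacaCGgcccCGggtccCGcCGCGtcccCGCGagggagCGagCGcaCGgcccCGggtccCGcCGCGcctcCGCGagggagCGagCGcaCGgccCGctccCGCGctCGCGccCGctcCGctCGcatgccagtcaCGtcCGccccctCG
Tet3: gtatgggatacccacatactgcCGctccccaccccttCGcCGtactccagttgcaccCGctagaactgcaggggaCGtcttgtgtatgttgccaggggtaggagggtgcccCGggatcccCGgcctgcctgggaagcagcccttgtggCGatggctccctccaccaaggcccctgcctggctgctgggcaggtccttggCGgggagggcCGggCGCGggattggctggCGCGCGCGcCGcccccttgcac
Dnmt3l: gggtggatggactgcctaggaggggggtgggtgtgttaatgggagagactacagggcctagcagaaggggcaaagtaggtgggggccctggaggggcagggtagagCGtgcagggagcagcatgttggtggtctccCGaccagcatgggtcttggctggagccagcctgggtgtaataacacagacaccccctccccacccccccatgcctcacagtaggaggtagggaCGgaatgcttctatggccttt

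The Tet2 stretch held 51 CpGs, against a median of 6 over the 32851 starts of the RefSeq table, and 0.067% of all starts had as many. Tet1 had 15 CpGs and Tet3 had 17, which 27.3% and 23.5% of all starts reached. The Dnmt3l stretch held 3 CpGs, which 71.0% of all starts reached or passed. The other RefSeq starts of Dnmt3l, upstream at 78042287 and 78049842 on chromosome 10, had 5 and 4 CpGs. A GC box (GGGCGG, or CCGCCC on the other strand, letters that overlap a CpG) was found once each upstream of Tet1, Tet2 and Tet3. It was not in the Dnmt3l stretch shown, while the Dnmt3l start at 78049842 had 2 and that at 78042287 had 0. Of all starts 32.7% had a GC box. No methylation was measured in these cells, and the deposited values do not say which start was used.

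Both libraries expressed ES cell markers. Of 10 such markers all averaged at least 1 TPM (reads divided by gene length and scaled to a sum of 1000000 in each library). Pou5f1, which encodes Oct4, stood at 1454 TPM in the T29I library and at 1722 TPM in the wild-type library. Zfp42, a marker of naive ES cells, was at 23.3 TPM in T29I and 544 TPM in wild type, and Nanog at 140.3 TPM in T29I and 765 TPM in wild type. Utf1 was higher in the T29I library, at 2459 against 972 TPM. Sox2, Dppa5a and Esrrb were at 355, 2632 and 77.5 TPM in T29I and 563, 5089 and 313 TPM in wild type. Tdgf1, Lin28a and Sall4 were at 357, 87.7 and 66.4 TPM in T29I and 899, 220.5 and 197 TPM in wild type. As deposited 6 of the 10 were 2-fold or more lower and 1 higher. Of all genes averaging 1 TPM or more, 45.7% were lower and 9.97% higher. After the adjustment for length and GC content described below, 3 of the 10 markers were lower and 0 higher. By that rule 15.5% of all genes were lower and 17.6% higher. The adjusted log2 ratio of Utf1, T29I over wild-type, was -0.40. Of 10 trophoblast markers 6 averaged 1 TPM or more. Of these, 4 were higher and 1 lower by 2-fold or more as deposited, against 9.97% and 45.7% of all genes. Hand1 was at 79.5 TPM in the T29I library and 0.868 TPM in the wild-type library. Hand1, Krt7 and Plac1 passed the 1 TPM filter through their T29I level alone, with Krt7 at 0.41 TPM and Plac1 at 0 in wild type. Cdx2 was at 0.402 TPM in T29I and 0.256 TPM in wild type, and Tpbpa was listed at 0 in both. The 10 trophoblast markers summed to 188.6 TPM in the T29I library and 83.6 TPM in the wild-type library, of which Tfap2c made up 53.1 and 73.4 TPM. The 12 feeder fibroblast markers summed to 23.7 and 13.1 TPM, of which Thy1 made up 17.6 and 4.57 TPM. The 10 markers of extraembryonic endoderm summed to 239.7 and 94.96 TPM, of which Sparc alone made up 237.1 and 86.3 TPM. The part of other cell types in the results below was not tested. Depth was estimated at 15281670 reads in the T29I library and 16909999 in the wild-type library, and the 20 most abundant genes took 27.0% of the T29I TPM and 16.9% of the wild-type TPM.

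Most genes had lower TPM in the T29I library. The median log2 ratio of T29I over wild-type, computed on log2(TPM + 1), was -0.90 over the 9375 genes that averaged at least 5 TPM, a 1.86-fold lower level. The ratio also followed length and base composition. Across 9100 protein-coding genes, which are not independent replicates, Spearman's rho of the ratio was -0.53 with length (of the longest transcript) and 0.56 with GC content. Each member is therefore given as deposited, relative to this median, and adjusted, which is what remains after a fit of the ratio on length and GC content. In bulk RNA, fewer cells of a type and less RNA per cell cannot be told apart.

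The TET genes had the lowest levels of the 9 in the T29I library, and each was lower there than in the wild-type library. Tet2, a dioxygenase of stem and blood cells, was at 0.489 TPM in the T29I library (95% counting interval 0.367 to 0.637, about 54 reads) and 62.1 TPM in the wild-type library (60.4 to 63.7, about 5436 reads). That is 127-fold lower, with a counting interval of 97.3 to 169. Only 18 of the 12943 genes that averaged at least 1 TPM had a lower log2 ratio than the -5.41 of Tet2. Among 21793 protein-coding genes Tet2 ranked 12388th by level in the T29I library and 2585th in the wild-type library, a measure that no scaling of a whole library can change. Its longest transcript is 9179 bases with 45.4% GC, a class for which the fit gave a log2 ratio of -2.62. The difference left after adjustment was -2.78, or 6.87-fold lower, and 1.29% of all genes lay below it. This fold is on log2(TPM + 1), so it is not on the scale of the 127-fold, a quotient of TPM. With 0.1 added to TPM in place of 1 (the pseudocount), the adjusted log2 ratio was -3.74. Among the 249 fitted genes with a transcript over 9000 bases, whose median log2 ratio was -2.85, 1 had a lower log2 ratio than Tet2.

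Tet1, the main TET enzyme of ES cells, was at 8.53 TPM in the T29I library (7.97 to 9.12) and 160 TPM in the wild-type library (157 to 163), 18.7-fold lower (17.5 to 20.1). As deposited its log2 ratio was -4.08, with 126 genes below it, and relative to the median gene it was -3.18. At 14369 bases and 43.7% GC it has the longest transcript and the lowest GC content of the 9, and the fit gave -3.49 for such a gene. After adjustment the log2 ratio was -0.59, and 27.1% of all genes lay below it. With merged exon length, on which the TPM appear to rest, in place of the longest transcript, the adjusted value was -1.39, past 2-fold, and with a pseudocount of 0.1 it was -0.19. Tet1 was thus lower in each of these fits, by an amount that depended on the fit, and the part of length and GC content in its difference was not tested.

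Tet3, the TET enzyme of oocytes and neurons, was near the lower end of detection in both libraries. It was at 0.303 TPM in the T29I library (0.209 to 0.424, about 33 reads) and 1.64 TPM in the wild-type library (1.38 to 1.93, about 142 reads), 5.41-fold lower (3.69 to 8.14). Its mean of 0.970 TPM kept it out of every count that asks for 1 TPM. Its log2 ratio was -1.02 as deposited, -0.12 relative to the median gene and 1.44 adjusted, so it was lower in TPM and higher than the fit gave for its length and GC content. With a pseudocount of 0.1 the adjusted value was 0.71, and placed on the trend by its shorter CCDS transcript of 5944 bases it was -0.35, so that no direction held for Tet3 beyond the trend.

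Tdg, the glycosylase that acts after the TET enzymes, was at 35.8 TPM in the T29I library (33.9 to 37.9) and 66.6 TPM in the wild-type library (63.6 to 69.7). It was 1.86-fold lower (1.73 to 1.997), the same fold as the median gene, so its log2 ratio relative to that gene was 0.02. Adjusted, it was 0.29. The pseudogene Tdg-ps was listed at 0 in both libraries. Glt8d2, which shares 367 exonic bases with Tdg on the opposite strand, was at 0.105 TPM in the T29I library and 0.0667 TPM in the wild-type library.

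**Figure D1:**
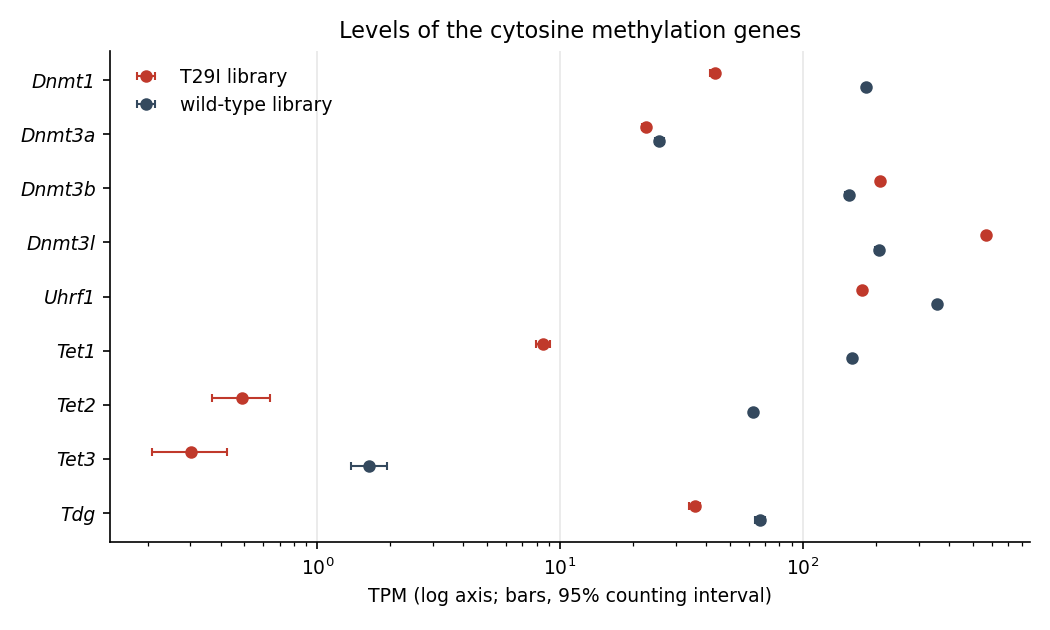
TPM of the 9 genes (log axis) in the T29I library (red) and the wild-type library (dark blue), 1 library each, with bars for the 95% counting interval. Tet2 and Tet1 show the widest gaps, at 0.489 against 62.1 TPM and 8.53 against 160 TPM, and Dnmt3l and Dnmt3b lie higher in the T29I library.

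Both maintenance genes were lower in the T29I library, Dnmt1 by more than Uhrf1. Dnmt1, which copies methylation after replication, was at 43.4 TPM in the T29I library (41.6 to 45.3) and 183 TPM in the wild-type library (179 to 187), 4.21-fold lower (4.01 to 4.42). Its rank among protein-coding genes was 2392nd in the T29I library and 809th in the wild-type library. The log2 ratio of -2.05 became -1.15 relative to the median gene and -0.74 after adjustment, so Dnmt1 kept its direction and lost its place past 2-fold.

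Uhrf1, the partner that brings Dnmt1 to replicated DNA, was at 176 TPM in the T29I library (171 to 181) and 357 TPM in the wild-type library (349 to 365), 2.03-fold lower (1.96 to 2.10). Relative to the median gene the log2 ratio of Uhrf1 was -0.12, and adjusted it was -0.36, where 34.7% of all genes were lower. Within a library, where a common scale cancels, Uhrf1 stood at 4.05 times the TPM of Dnmt1 in the T29I library and at 1.95 times in the wild-type library. Dnmt1 and Uhrf1 thus differed by unequal amounts. Dnmt1 has the longer transcript, 5870 bases against 3586, and the fit gave it the lower log2 ratio, -1.31 against -0.66. The part of length and GC content in the gap between Dnmt1 and Uhrf1 was not tested.

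Dnmt3l was the gene of the 9 with the highest ratio as deposited. It was at 568 TPM in the T29I library (558 to 579, about 11216 reads) and 206 TPM in the wild-type library (199 to 213, about 3196 reads), 2.76-fold higher (2.65 to 2.87). It ranked 228th of the protein-coding genes in the T29I library and 702nd in the wild-type library. The log2 ratio was 1.46 as deposited, 2.35 relative to the median gene and 1.51 adjusted. On these scales 95.1% of all genes lay below it as deposited and 91.3% after adjustment. Its 6 CCDS transcripts run from 1113 to 1822 bases and gave adjusted values of 1.36 to 1.51. Aire, which shares 67 exonic bases with Dnmt3l on the opposite strand, was at 27.5 TPM in the T29I library and 8.61 TPM in the wild-type library. The kit keeps strand, but whether the counting used it is not given.

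Dnmt3b, the main de novo methyltransferase of the early epiblast, was at 209 TPM in the T29I library (204 to 213) and 154 TPM in the wild-type library (149.5 to 159), 1.35-fold higher (1.30 to 1.41). Its log2 ratio of 0.43 was 1.33 relative to the median gene and 1.38 after adjustment, where 89.7% of all genes lay below. The 10 CCDS transcripts of Dnmt3b, of 3630 to 4320 bases, gave adjusted values of 1.11 to 1.38. Dnmt3c-ps, listed under that name beside Dnmt3b, was at 0.409 TPM in the T29I library and 0.0869 TPM in the wild-type library.

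Dnmt3a, the other de novo methyltransferase, was nearly level as deposited, at 22.6 TPM in the T29I library (21.7 to 23.5) and 25.7 TPM in the wild-type library (24.6 to 26.7). It was 1.14-fold lower (1.07 to 1.20), or 0.72 on the log2 scale relative to the median gene. Its adjusted value depended on the transcript. The longest, of 9685 bases, gave 2.16, above 96.9% of all genes. Of the other CCDS transcripts, those of 8737 and 5424 bases gave 1.935 and 1.253. Only the shortest of the 4, of 2328 bases, gave a value below 0, at -0.23. ES cells are known to use an internal promoter of Dnmt3a that makes a shorter protein, and the deposited values do not separate transcripts. The other de novo genes are thus higher on both rescaled scales, and Dnmt3a has no direction that holds. Dnmt3a-ps1 and the antisense gene Dnmt3aos were listed at 0 in both libraries.

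By level, per length, the order in the T29I library was Dnmt3l, Dnmt3b, Uhrf1, Dnmt1, Tdg, Dnmt3a, Tet1, Tet2 and Tet3. In the wild-type library it was Uhrf1, Dnmt3l, Dnmt1, Tet1, Dnmt3b, Tdg, Tet2, Dnmt3a and Tet3. Among neighbours in these orders, the counting intervals overlapped for Tet2 and Tet3 in the T29I library, for Tet1 and Dnmt3b in the wild-type library, and for Tdg and Tet2 there. The spread between cultures is unknown. Low genes came out at whole reads when TPM was multiplied by the merged length of all exons, so a gene with many unused exons is given too low a level. With TPM rescaled to the longest transcript instead, Dnmt3a was at 38.8 in the T29I library and 44.1 in the wild-type library, and Tet2 at 0.898 and 114. On that scale 3 neighbours changed places. Tdg, at 54.98, lay above Dnmt1, at 54.5, in the T29I library. In the wild-type library Tet2 lay above Tdg, at 102, and Dnmt3b, at 182, above Tet1, at 172.

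Set against each other within a library, the genes that write methylation outweighed the TET genes far more in the T29I library. Dnmt1, Dnmt3a and Dnmt3b summed to 274.5 TPM in the T29I library and 363 TPM in the wild-type library. Tet1, Tet2 and Tet3 summed to 9.32 TPM in the T29I library and 224 TPM in the wild-type library. The quotient of both sums was 29.4 in the T29I library and 1.62 in the wild-type library. The TET transcripts are longer than those of Dnmt1 and Dnmt3b, so this quotient moves with the length trend, and its share in the quotient was not tested. Dnmt3l stood at 2.72 times the TPM of Dnmt3b in the T29I library and 1.34 times in the wild-type library. Dnmt1 stood at 0.208 times the TPM of Dnmt3b in the T29I library and 1.19 times in the wild-type library. Tet1 stood at 17.5 times Tet2 in the T29I library and 2.58 times in the wild-type library, with the longer transcript and lower GC content on the side of Tet1.

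Counted against all genes, the set of 9 as such gave no result, since its shares in each direction rest on 8 genes and as deposited were close to those of the whole table. Of the 8 that averaged at least 1 TPM, 4 were 2-fold or more lower and 1 2-fold or more higher in the T29I library as deposited, where 45.7% of 12943 genes were lower and 9.97% higher by the same rule. Tet2 passed this filter through its wild-type level alone. Relative to the median gene 3 were lower, namely Dnmt1, Tet1 and Tet2, and 2 higher, namely Dnmt3b and Dnmt3l, against 22.2% and 26.0% of all genes. After adjustment 1 was lower, Tet2, and 3 were higher, Dnmt3a, Dnmt3b and Dnmt3l, against 15.5% and 17.6% of 12920 genes. The median log2 ratio of the 8 was -0.95 as deposited, -0.05 relative to the median gene and -0.04 adjusted, and that of all genes was -0.84, 0.06 and 0.04. On each of these scales Tet2 was the lowest of the 8 and Dnmt3b and Dnmt3l were among the 3 highest.

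**Figure D2:**
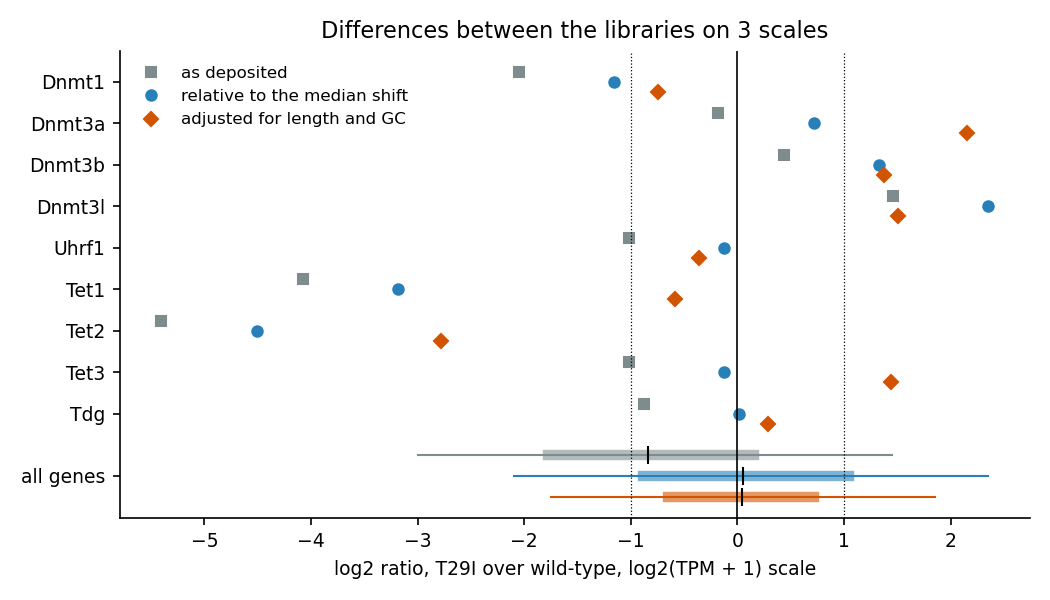
Log2 ratio of T29I over wild-type for the 9 genes as deposited (grey squares), relative to the median gene (blue circles) and adjusted for length and GC content (orange diamonds), with dotted lines at 2-fold. The bars at the foot give all genes that averaged at least 1 TPM (thick, 25th to 75th percentile, thin, 5th to 95th, tick, median), and Tet2 lies outside the thin bar on each scale, at -5.41, -4.51 and -2.78.

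**Figure D3:**
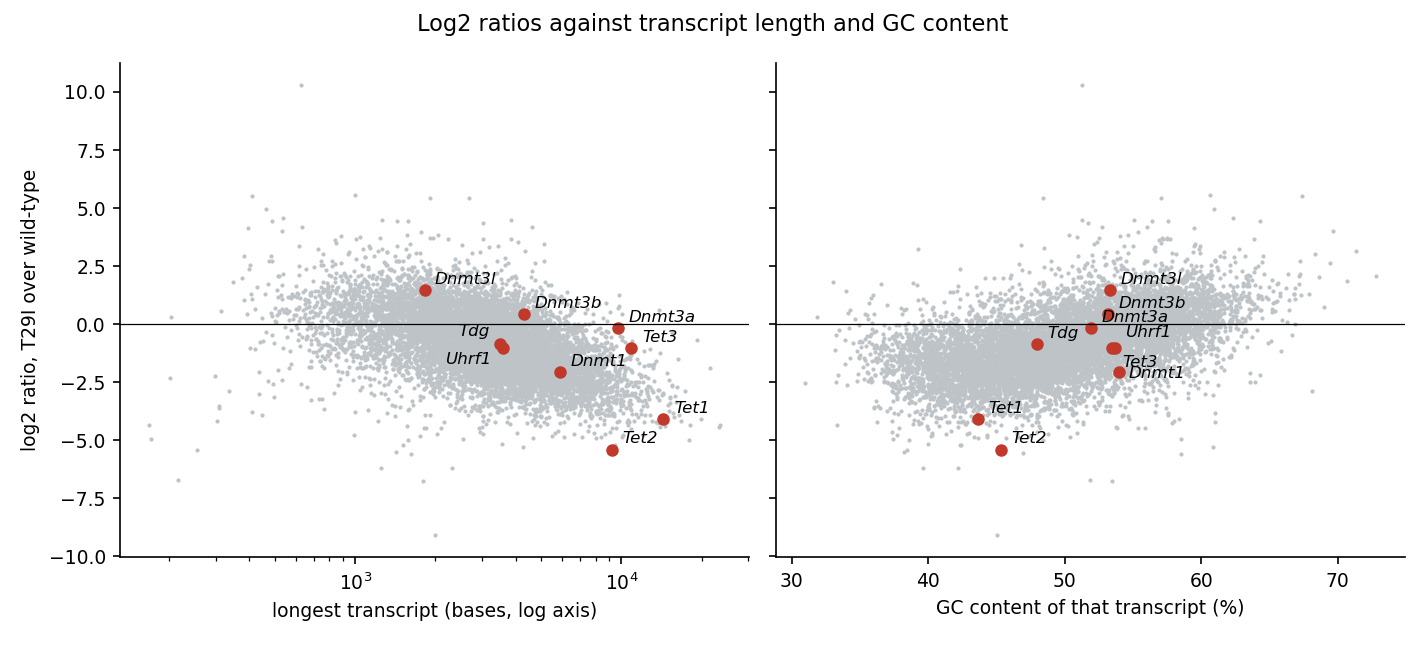
Log2 ratio of T29I over wild-type, as deposited, against the longest transcript (left, log axis) and its GC content (right) for 9100 protein-coding genes (grey) and the 9 genes (red). Tet1 at -4.08 lies near the lower edge of the long genes, Tet2 at -5.41 below nearly all of them and Dnmt3a at -0.18 above most.

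The members lie on 7 chromosomes, and their neighbouring genes went in different directions. On GRCm38 (GENCODE M21), Tet2 (ENSMUSG00000040943) spans 133463679 to 133545139 on the - strand of chromosome 3. Its nearest protein-coding gene that averaged at least 1 TPM, Ppa2, an inorganic pyrophosphatase gene 85.4 kb away, was at 48.4 TPM in the T29I library and 45.1 TPM in the wild-type library. Tet1 (ENSMUSG00000047146) spans 62804570 to 62908996 on the - strand of chromosome 10. Its neighbours Ccar1 and Slc25a16 were both lower with it, at 7.40 and 1.83 TPM in the T29I library and 73.1 and 22.0 TPM in the wild-type library, with adjusted log2 ratios of -1.35 and -1.63. Dnmt3l (ENSMUSG00000000730), also on chromosome 10, spans 78041947 to 78063622 on the + strand. It lies between Aire and Icosl, and Icosl was at 3.15 TPM in the T29I library and 13.2 TPM in the wild-type library. Dnmt1 (ENSMUSG00000004099) is on chromosome 9 from 20907209 to 20959888, Uhrf1 (ENSMUSG00000001228) on chromosome 17 from 56303321 to 56323486, and Dnmt3b (ENSMUSG00000027478) on chromosome 2 from 153649450 to 153687730. Dnmt3a (ENSMUSG00000020661) is on chromosome 12 from 3806007 to 3914443, Tet3 (ENSMUSG00000034832) on chromosome 6 from 83362373 to 83459084, and Tdg (ENSMUSG00000034674) on chromosome 10 from 82629828 to 82650799.

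Factors that direct the methyltransferases included genes far lower in the T29I library, such as Setd2 and Nsd1, and others that were higher, such as Dppa3. Of 30 such genes, 14 were 2-fold or more lower and 3 higher relative to the median gene, against 22.2% lower and 26.0% higher among all genes. After adjustment 7 were lower and 4 higher, against 15.5% and 17.6% of all genes, which is closer to the whole table, with list medians of -0.64 and -0.66 where all genes had 0.06 and 0.04. Setd2, which makes the H3K36me3 mark read by Dnmt3b, was at 1.14 TPM in the T29I library and 61.1 TPM in the wild-type library. Nsd1, which makes the H3K36me2 mark read by Dnmt3a, was at 5.48 TPM in T29I and 97.6 TPM in wild type, and its adjusted log2 ratio was -0.76 at a transcript of 12780 bases. Zfp445, a zinc finger factor that protects imprinted methylation, was at 3.29 TPM in the T29I library and 53.5 TPM in the wild-type library. Dppa3, which keeps Uhrf1 off chromatin, was at 153.2 TPM in the T29I library and 72.6 TPM in the wild-type library. The methyltransferase partner gene Naa10 was at 105.7 TPM in T29I and 59.6 TPM in wild type, and Ehmt2, which methylates H3K9, at 113.4 TPM in T29I and 84.5 TPM in wild type. Prdm14 represses Dnmt3b and Dnmt3l in naive ES cells. Its values were known when it was listed, and it is counted among the 14 and the 7 lower genes. It was at 4.19 TPM in the T29I library and 36.0 TPM in the wild-type library, with an adjusted log2 ratio of -2.20.

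Among genes of proteins that read methylated DNA, Mbd4, Mbd1, Zbtb33 and Mbd2 had lower TPM in the T29I library and Mbd3 had higher TPM. Of 9 measured readers, 4 were 2-fold or more lower and 1 higher relative to the median gene, against 22.2% lower and 26.0% higher among all genes, and 3 and 1 after adjustment, against 15.5% and 17.6%, with medians of -0.81 and -0.66. Mbd4, a glycosylase that also removes thymine from T-G mismatches as Tdg does, was at 0.946 TPM in the T29I library and 14.3 TPM in the wild-type library. Mbd1 was at 3.55 TPM in T29I and 24.9 TPM in wild type, Zbtb33, which encodes Kaiso, at 1.39 TPM in T29I and 10.9 TPM in wild type, and Mbd2 at 5.28 TPM in T29I and 17.1 TPM in wild type. Mbd3, which has lost selective binding to methylated DNA in mammals, was at 345.5 TPM in the T29I library against 206 TPM in the wild-type library, and its adjusted log2 ratio was -0.66. Mbd6 was at 16.95 TPM in T29I and 21.5 TPM in wild type.

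Genes of base excision repair and deamination, only some of which act after Tdg, passed 2-fold no more often than all genes did. The list also holds other glycosylases, deaminases and Gadd45 genes. Of 20 measured genes, 2 were 2-fold or more lower and 5 higher relative to the median gene, against 22.2% lower and 26.0% higher among all genes, and 2 and 2 after adjustment, against 15.5% and 17.6%, with medians of 0.28 and -0.07. Gadd45g, a stress gene linked to active demethylation, was at 25.6 TPM in the T29I library and 1.81 TPM in the wild-type library. The repair scaffold gene Xrcc1 was at 48.99 TPM in the T29I library and 37.5 TPM in the wild-type library. Parp1 was at 153.2 TPM in T29I and 434 TPM in wild type and Lig3, the ligase of this pathway, at 15.7 TPM in T29I and 35.5 TPM in wild type, with adjusted log2 ratios of -0.65 and 0.63.

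Genes of the methyl donor supply likewise gave counts near or under those of the whole table. Of 22 measured genes, 4 were 2-fold or more lower and 5 higher relative to the median gene, against 22.2% lower and 26.0% higher among all genes, and 1 and 3 after adjustment, against 15.5% and 17.6%, with medians of -0.26 and -0.03. Ahcy, which clears S-adenosylhomocysteine, the product that inhibits methyltransferases, was at 568 TPM in the T29I library and 130.5 TPM in the wild-type library, with an adjusted log2 ratio of 2.60. Cbs, which diverts homocysteine to cysteine synthesis, was at 35.4 TPM in the T29I library against 18.9 TPM in the wild-type library, and Gnmt, which uses up the donor, at 11.1 TPM in T29I and 3.04 TPM in wild type. Mtr, the enzyme that remakes methionine, was at 4.85 TPM in the T29I library against 37.8 TPM in the wild-type library, and its reactivating enzyme Mtrr at 6.64 TPM in T29I and 37.8 TPM in wild type. Ahcyl2 was at 1.64 TPM in T29I and 9.52 TPM in wild type. The adjusted log2 ratio was -0.30 for Mtr and -1.18 for Mtrr.

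Genes around TET activity gave 7 of 23 measured genes 2-fold or more lower and 4 higher relative to the median gene, against 22.2% lower and 26.0% higher among all genes. After adjustment 2 were lower and 0 higher, against 15.5% and 17.6% of all genes, with medians of -0.18 and -0.37 on these scales. Slc23a1, an ascorbate transporter gene and lower on both scales, was at 0.935 TPM in the T29I library and 18.5 TPM in the wild-type library. Hcfc1, a partner of the TET-binding enzyme Ogt, was at 30.0 TPM in the T29I library and 206 TPM in the wild-type library, with an adjusted log2 ratio of -0.89. Idh2, which makes the TET cosubstrate 2-oxoglutarate, was at 156.3 TPM in the T29I library and 111.9 TPM in the wild-type library. Got2 was at 356 TPM in T29I and 233 TPM in wild type and Sdhb at 154 TPM in T29I and 127 TPM in wild type, and their adjusted values were 0.79 and 0.10, against 0.23 for Idh2.

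Germline genes that DNA methylation is known to silence in somatic cells went in both directions. Of 25 measured genes, 11 were 2-fold or more higher and 3 lower relative to the median gene, against 26.0% higher and 22.2% lower among all genes, and 11 and 3 after adjustment, against 17.6% and 15.5%, with medians of 0.55 and 0.81. Rhox5, a homeobox gene of the X chromosome, was at 727 TPM in the T29I library and 122 TPM in the wild-type library. Tuba3a, a testis tubulin gene, was at 83.1 TPM in the T29I library against 11.7 TPM in the wild-type library, and Tex19.1, a germ cell and placenta gene, at 277 TPM in T29I and 67.3 TPM in wild type. Tuba3a has a near-identical copy, Tuba3b, so its value is uncertain. The meiotic genes Syce1 and Stag3 went the other way, at 1.45 and 1.61 TPM in the T29I library and 14.9 and 15.7 TPM in the wild-type library. Ddx4 was at 3.67 TPM in T29I and 23.2 TPM in wild type. Most of the 25 stood above 1 TPM in both libraries, and the rest passed the filter through one library only. With 1 library per group these counts carry no test.

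**Figure D4:**
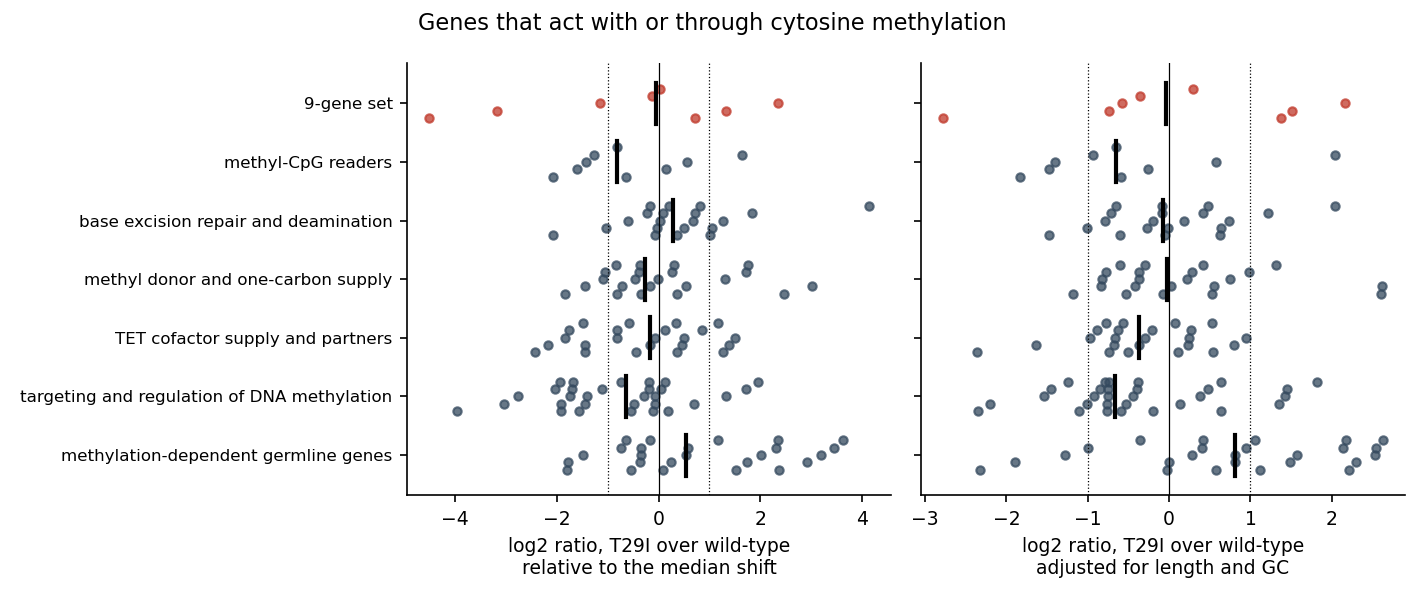
Log2 ratio of T29I over wild-type for each gene that averaged at least 1 TPM, relative to the median gene (left) and adjusted for length and GC content (right), for 8 of the 9 genes (red; Tet3 falls under the filter) and 6 lists of related genes (dark blue), with a black bar at each median. Germline genes have the highest list median, at 0.55 and 0.81, and the 8 genes spread from Tet2 at the low end to Dnmt3l (left) or Dnmt3a (right) at the high end.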

How the data were processed

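Per the labels' protocols, Isogen was used for RNA and a stranded Illumina total RNA kit with ribosomal RNA removal for the libraries. The authors deposited 1 table of TPM values per gene, and each column summed to 1000000. The aligner, quantifier, genome build and annotation were not given in the sources used here. Columns were assigned through the sample descriptions and groups through the genotype labels.

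GENCODE M21 (GRCm38) held 51633 of the 51826 gene identifiers. Multiplying TPM by merged exon length gave whole reads, within 0.05, for 86.2% of T29I values and 87.7% of wild-type values under 50 reads, against 10% by chance. The implied reads gave 95% exact Poisson intervals for levels and exact binomial intervals for folds, which cover counting error only. They are estimates, because the annotation of the authors may differ.

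Ratios are T29I over wild-type on log2(TPM + 1), which understates differences of low genes, and folds of members are quotients of TPM. Counts were over genes that averaged at least 1 TPM and a log2 ratio of at least 1 in size. The length and GC fit was quadratic with interaction on 9100 protein-coding genes that averaged at least 5 TPM and accounted for 44.9% of the variance. It was checked on simulated data, and it also takes out real differences where they run along length or GC content. No count model was used, because TPM keeps no counts and 1 library per group leaves no spread. Alternatives were 2 pseudocounts, 2 filters, 3 scalings and 2 adjustments, with 3 adjustments chosen after seeing the data. Named genes were the 9 members, all ES cell markers, and from each other list the 3 highest and 3 lowest log2 ratios that averaged at least 5 TPM. Named outside this rule were Cdx2, Tpbpa, Plac1, Tuba3b and Prdm14, after their values were seen, and genes near, overlapping or similar to the members. The members and lists were chosen with earlier results of these data known. All 9 members matched the RefSeq promoter table. Oga is listed as Mgea5. A few genes that the rule names are not reported here. Python 3.11.15, pandas 2.3.3, numpy 2.4.6 and scipy 1.17.1 were used.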

Additional observations from a re-analysis of the deposited data

How the results depend on the processing

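Among the 8 genes that averaged at least 1 TPM, the count lower by 2-fold or more was 4 as deposited. It stayed at 3 to 5 under the pseudocounts, filters and scalings tried, with 5 where no filter was used and Tet3 was counted. It was 1 after adjustment for length and GC content, 1 for length alone, 1 with the shortest CCDS transcripts, 1 with a pseudocount of 0.1 in the adjusted fit, and 2, Tet1 and Tet2, with merged exon length. The count 2-fold or more higher was 1 as deposited, 2 relative to the median gene and 2 with the shortest CCDS transcripts, and 3 under each of the other adjustments. The fewer lower calls follow from the construction of the adjustments, which subtract a trend that is lower for long genes. Over all settings the log2 ratio ran from -6.72 to -2.66 for Tet2 and from 1.36 to 2.35 for Dnmt3l, past 2-fold in all 13. Dnmt1, Uhrf1 and Tet1 were below 0 and Dnmt3b above 0 in all 13, while Dnmt3a and Tdg changed sign. Tet3, at -1.02 as deposited, was 1.44 after adjustment for length and GC content, 1.88 for length alone, 1.30 with merged exon length and 0.71 with a pseudocount of 0.1 in the adjusted fit, and the cause was not tested. No paired analysis was possible because each group has 1 library, and no library could be left out. Depth limits Tet2 and Tet3, with about 54 and 33 reads in the T29I library.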
